A study of Mus musculus with 12 samples.

Results

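The tricarboxylic acid (TCA) cycle enzymes described here are the products of 9 nuclear genes: Cs, Idh3a, Idh3b, Idh3g, Ogdh, Dlst, Suclg1, Fh1 and Mdh2. They were chosen by gene symbol, and all 9 are present in both tables of the authors' comparison, among 16738 genes for inguinal white fat (iWAT) and 15363 for brown fat (BAT). The libraries came from C57BL/6 mice on a high-fat diet at room temperature, either wild type (WT) or with the deletion that the series calls Adipo-NDUFS4 KO. NDUFS4 is a subunit of respiratory complex I. The labels give 12 white fat libraries, with 3 for each genotype in each sex, all on the same diet. The sources used here do not give age, the promoter that drives the deletion or the number of animals behind a library, and the labels list no brown fat sample. P-values therefore measure the spread between libraries, which may be technical in part.

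The cycle runs in the mitochondrial matrix. It joins acetyl-CoA to oxaloacetate, oxidises the citrate so formed back to oxaloacetate, and hands the electrons to the respiratory chain, mostly as NADH. Complex I is where that NADH is reoxidised, so the cycle and the complex are linked through the NADH pool. In white fat the cycle also exports citrate for lipid synthesis, and in brown fat it fuels heat production.

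Each comparison read here is an interaction of genotype and sex, in log2 units: the KO effect in females minus the KO effect in males. The order of the sexes was read from the tables' names. A value above 0 means that the KO to WT ratio of a transcript was larger in females than in males, and it does not say in which sex, or in which genotype, the transcript differed. Columns of single libraries carry names that match no label and were used in no step, so values per library, group means and covariation between the genes are not analysed here. Sequencing depth is unknown for these values. The error printed after ± is the standard error of the authors' fit.

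Promoters of 4 of the 9 cycle genes are printed to show what letters lie at their starts. Each of the 4 holds a match to a motif searched below, so they do not stand for all 9 genes. Windows of Idh3b, Idh3g and Suclg1, which hold no match, are not printed, and neither are the other windows of Ogdh. Each stretch holds 120 bases before and 10 bases from the RefSeq start, on build GRCm38.p6 and the plus strand, with matches to the searched motifs in capitals. RefSeq promoter windows were found for 8 of the 9 genes, 13 windows in all, and none for Idh3a.
Cs, chr10:128337607-128337736: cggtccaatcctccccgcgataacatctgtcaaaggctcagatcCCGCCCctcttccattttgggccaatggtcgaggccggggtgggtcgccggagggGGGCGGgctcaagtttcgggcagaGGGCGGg
Ogdh, chr11:6292438-6292567: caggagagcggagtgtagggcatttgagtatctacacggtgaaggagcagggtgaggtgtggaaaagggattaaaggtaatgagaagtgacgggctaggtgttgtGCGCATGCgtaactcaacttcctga
Dlst, chr12:85110713-85110842: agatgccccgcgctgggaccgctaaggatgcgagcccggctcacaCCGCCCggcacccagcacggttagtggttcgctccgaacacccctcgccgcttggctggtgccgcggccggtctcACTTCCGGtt
Mdh2, chr5:135778529-135778658: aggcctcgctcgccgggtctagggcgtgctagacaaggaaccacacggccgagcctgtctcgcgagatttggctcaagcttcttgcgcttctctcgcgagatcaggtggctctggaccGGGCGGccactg

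Over the full windows, which reach from 250 bases before to 50 bases after the start, the motifs were searched on both strands. The oestrogen-related receptor element TCAAGGTCA was in none of the 13 windows and in 0.423% of all 32851 windows. Its shorter core AAGGTCA, which the longer element contains, was in 1 window, of Ogdh, against 4.72% of all windows. The core of the nuclear respiratory factor 1 (NRF1) site, GCATGCGC, was in 2 overlapping windows of Ogdh, and 2.71% of all windows hold it. The ETS site CCGGAAGT was in the window of Dlst, at positions 1 to 8 counted from the start site as 1, and in 3.89% of all windows. The SP1 box GGGCGG was in 8 windows of 5 genes (Cs, Dlst, Fh1, Mdh2 and Ogdh), and 35.7% of all windows hold it. Ogdh has 6 of the 13 windows, several of which overlap, and 4 of these 8, so the windows count 1 gene several times. In Cs it lay at positions -76 to -71, -21 to -16 and 4 to 9. The windows of Idh3b, Idh3g and Suclg1 held none of the motifs searched. No motif searched was shared by all 8 genes, and a match is only a run of letters.

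As the targeted gene, Ndufs4 was read first. In white fat the authors' deposited table gave it a log2 interaction of 0.89 ± 0.38 (adjusted p = 0.169, limma), and in brown fat -0.10 ± 0.14 (adjusted p = 0.946). Neither value passed an adjusted p of 0.05, and an interaction does not check the genotype labels. The white fat interval of Ndufs4, 0.07 to 1.70, left out 0, and its unadjusted p was 0.0348 (limma). The targeted gene thus lay on the same side of 0 as the 9 cycle genes there. Mean log2 expression of the adipocyte markers ran from 8.91 for Lep, the gene of leptin, to 12.49 for Fabp4, a lipid chaperone, in the authors' deposited table for white fat. In the authors' deposited table for brown fat, Ucp1, the uncoupling protein of brown adipocytes, was at 12.54. The 8 thermogenic adipocyte markers ran from 5.78 to 12.54 there. Of the 8 adipocyte markers, Retn, the gene of resistin, was lowest in brown fat, at 4.24, and Lep was at 4.31 by the authors' deposited table. The adipocyte list as a whole was high there, with a median of 10.02 and a highest level of 12.02.

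How abundant were the cycle enzymes? The deposited mean log2 expression has the range of log2 CPM, since 2 raised to it sums to 956039 over the genes of the white fat table and 991827 over those of brown fat. Whether the tables were normalised together is not given, so levels are set side by side and not tested. The 9 genes ran, in the authors' deposited table for white fat, from 6.89 for Fh1 to 8.59 for Mdh2, and in that for brown fat from 8.25 for Fh1 to 10.73 for Mdh2. Their summed level made up 0.194% of the white fat total and 0.875% of the brown fat total. Each gene stood higher in the brown fat table, by 1.36 for Fh1 to 2.78 for Suclg1 in mean log2 expression, whereas the median over the 14502 genes in both tables was -0.60.

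Levels of different genes were compared per kilobase of exon, with lengths from GENCODE M21 between 1331 bases for Idh3g and 4449 for Ogdh. On this scale (mean log2 expression per kilobase) Mdh2, malate dehydrogenase, was highest in both depots, at 8.04 in white and 10.18 in brown fat. Suclg1, the alpha subunit that both forms of succinyl-CoA ligase share, followed at 7.30 and 10.08. Idh3g, a regulatory subunit of NAD-dependent isocitrate dehydrogenase, came next, with 7.21 in white fat and 9.55 in brown fat. Idh3a, the catalytic subunit of the same enzyme, was at 6.57 in white fat and 8.77 in brown fat, and Idh3b, a further subunit, at 6.41 and 8.93. Dlst, the succinyltransferase core of the 2-oxoglutarate dehydrogenase complex, stood at 6.15 and 8.16 in that order. Cs, citrate synthase, which opens the cycle, was at 5.97 in white fat and 7.52 in brown fat. The lowest were Fh1, fumarase, at 5.49 in white and 6.85 in brown fat, and Ogdh, the decarboxylating subunit of the 2-oxoglutarate dehydrogenase complex, at 5.09 and 7.48. The order of the genes was the same in both depots but for Idh3a with Idh3b and Fh1 with Ogdh, which changed places. The spread over libraries is not analysed here, so neighbours in this order are not told apart.

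Did loss of NDUFS4 act on the cycle genes differently in females and males in white fat? All 9 cycle genes had an interaction above 0, against 55.9% of the genes of the table. Idh3a alone passed an adjusted p of 0.05, while 1.06% of all genes passed above 0. Every one of the 9 had an unadjusted p under 0.05, against 11.9% of all genes above 0. Their median interaction was 1.50, and that of all genes was 0.13. The earlier results of these data were known when the genes were chosen, so these counts describe the group and test nothing about it. In bulk tissue, fewer cells of a type and less RNA per cell cannot be told apart.

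**Figure D1:**
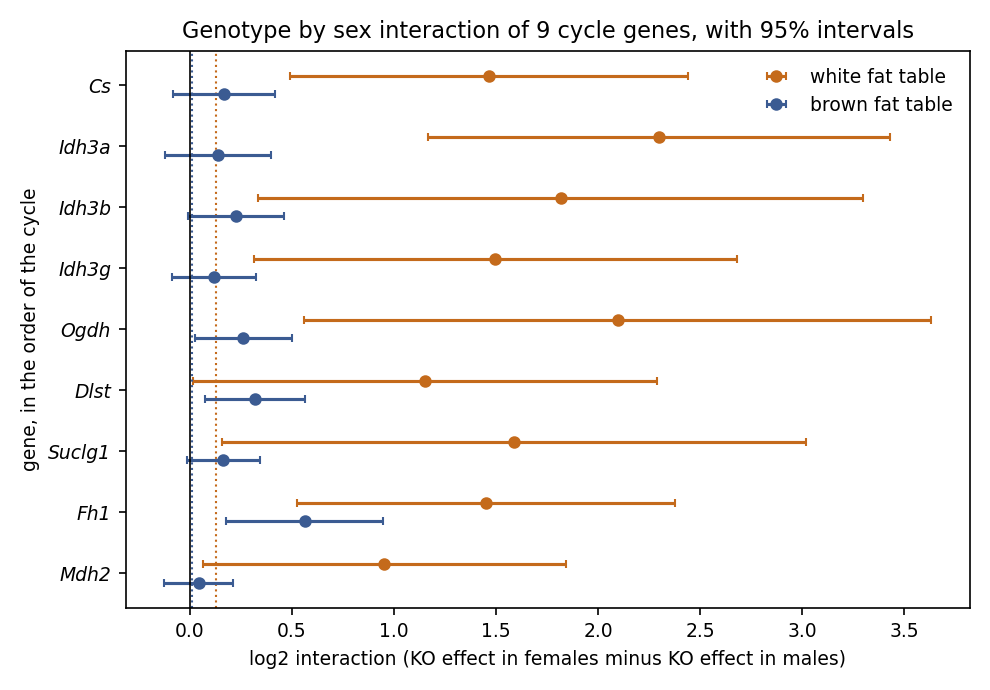
Log2 interaction of genotype and sex (x axis) for the 9 cycle genes in the order of the cycle (y axis). Points are the authors' estimates, bars are 95% intervals from their standard errors and dotted lines are the medians of all genes, with white fat in orange and brown fat in blue. In white fat all 9 intervals lie above 0, and in brown fat 3 do.

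Entry into the cycle and its first oxidation came first in the order of reactions. Cs (ENSMUSG00000005683.9, chromosome 10, 128173603 to 128198348, GRCm39) was at 1.47 ± 0.45 in the authors' deposited table (95% interval 0.49 to 2.44, adjusted p = 0.0722). Idh3a (ENSMUSG00000032279.12, chromosome 9, 54493618 to 54511945) was at 2.30 ± 0.53 in the authors' deposited table, with an interval of 1.17 to 3.43 and an adjusted p of 0.0361. On a linear scale this is a KO to WT ratio 4.92 times as large in females as in males. Idh3b (ENSMUSG00000027406.14, chromosome 2, 130121229 to 130126467) was at 1.82 ± 0.69 in the authors' deposited table (interval 0.34 to 3.30, adjusted p = 0.127). The remaining subunit gene, Idh3g (ENSMUSG00000002010.18, chromosome X, 72822569 to 72830503), was at 1.50 ± 0.55 in the authors' deposited table (interval 0.31 to 2.68, adjusted p = 0.118). The 3 subunit genes of this enzyme therefore lay on the same side of 0 with overlapping intervals, and a difference among them was not tested.

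The next steps turn 2-oxoglutarate into succinate. Ogdh (ENSMUSG00000020456.18, chromosome 11, 6241633 to 6306642) had the second largest interaction, 2.10 ± 0.71 in the authors' deposited table (interval 0.56 to 3.63), and an adjusted p of 0.0957. Its partner Dlst (ENSMUSG00000004789.11, chromosome 12, 85157607 to 85181619) was at 1.15 ± 0.53 in the authors' deposited table, with an interval of 0.02 to 2.29 whose lower end almost reaches 0 (adjusted p = 0.198). Suclg1 (ENSMUSG00000052738.15, chromosome 6, 73225365 to 73253894) was at 1.59 ± 0.66 in the authors' deposited table (interval 0.16 to 3.02, adjusted p = 0.161). Ogdh thus had a larger estimate than Idh3b or Suclg1 and also the widest error of the 9 genes.

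The last steps restore oxaloacetate from fumarate. Fh1 (ENSMUSG00000026526.15, chromosome 1, 175427940 to 175453201) was at 1.45 ± 0.43 in the authors' deposited table (interval 0.53 to 2.38), with the second smallest adjusted p of the group, 0.0637. The gene overlaps Kmo, the gene of kynurenine 3-monooxygenase on the opposite strand, over 5255 bases. Kmo was at -3.75 (adjusted p = 0.0357) with a mean log2 expression of 3.38 in the authors' deposited table. The sources used here do not give the strand setting of the counting, so reads from the shared stretch cannot be told apart. Mdh2 (ENSMUSG00000019179.11, chromosome 5, 135807334 to 135819252) had the smallest interaction, 0.95 ± 0.41 in the authors' deposited table (interval 0.07 to 1.84, adjusted p = 0.175), although it was the most abundant of the 9. Idh3b shares 5 bases with Nop56 on the other strand, and no other cycle gene overlapped a gene of the tables.

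Among themselves the 9 interactions had an SD of 0.43, which is less than their median standard error of 0.53. All 9 intervals cover the range from 1.17 to 1.84. The genes were measured in the same libraries, so their errors may be correlated, and this correlation is not known here. These values therefore do not say whether the order of the genes by interaction is resolved, and differences between genes were not tested. With its own error, a gene needed an interaction between 1.54 (Mdh2) and 2.66 (Ogdh) to pass the adjusted p in this table, and Idh3a, which needed 1.97, was the one that reached it.

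**Figure D2:**
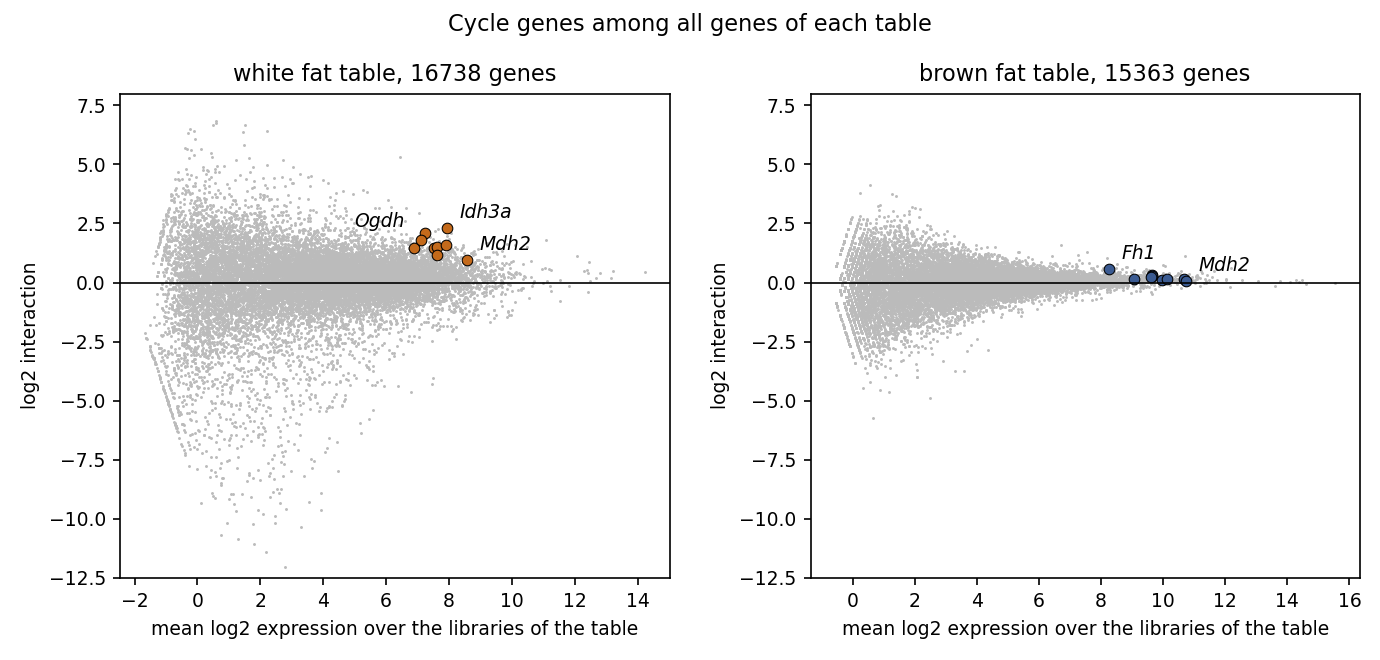
Log2 interaction (y axis) against mean log2 expression (x axis) for every gene of the white fat table (left, 16738 genes) and the brown fat table (right, 15363 genes), with the 9 cycle genes as large points. In white fat they lie between 0.95 and 2.30, and in brown fat between 0.04 and 0.56.

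Was the same seen in brown fat? All 9 cycle genes were again above 0, against 51% of the genes of the table, but the values were small. None passed an adjusted p of 0.05 in limma, where 2 genes of the table passed, both above 0 (0.013%). At an unadjusted p under 0.05 there were 3 cycle genes (Fh1, Dlst and Ogdh), against 3.33% of all genes above 0. The median of the 9 was 0.17, and that of all genes 0.01.

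Fh1 led in brown fat, with 0.56 ± 0.19 in the authors' deposited table (interval 0.18 to 0.95, adjusted p = 0.622). Of the 9, Dlst and Ogdh of the 2-oxoglutarate dehydrogenase complex came next in the authors' deposited table, Dlst at 0.32 ± 0.12 (interval 0.08 to 0.57, adjusted p = 0.677) and Ogdh at 0.26 ± 0.12 (interval 0.03 to 0.50, adjusted p = 0.745). These 3 intervals leave out 0. Idh3b was at 0.23 ± 0.12, Cs at 0.17 ± 0.12 and Suclg1 at 0.16 ± 0.09 in the authors' deposited table. Idh3a, which had the largest value in white fat, was at 0.14 ± 0.13 (interval -0.12 to 0.40, adjusted p = 0.899, per the authors' deposited table) in brown fat. The remaining values in the authors' deposited table were 0.12 ± 0.10 for Idh3g and 0.04 ± 0.08 for Mdh2, again the smallest of the 9. Their SD was 0.15, and all 9 intervals cover the range from 0.18 to 0.21. An interaction of 1 or more lies outside every one of the 9 brown fat intervals, the highest of which ends at 0.95.

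The difference between depots was tested for every gene in both tables, taking the tables as independent. All 9 cycle genes had the larger interaction in white fat, by 0.83 for Dlst to 2.16 for Idh3a, with a median of 1.38 against 0.20 for all 14502 genes. None passed an adjusted p of 0.05, where 13 genes passed with the larger value in white fat (0.0896%). An unadjusted p under 0.05 was found for 6 of the 9 (Idh3a, Cs, Ogdh, Idh3g, Idh3b and Mdh2), against 9.73% of all genes in that direction. For Idh3a the difference was 2.16 ± 0.54 (95% interval 1.01 to 3.31, adjusted p = 0.0883), and for Cs 1.30 ± 0.47 (interval 0.30 to 2.29, adjusted p = 0.198). With a correlation of 0.5 between the errors of the tables, these same 2 genes passed, with adjusted p-values of 0.00916 and 0.0449. Under that setting 8.07% of all 14502 genes passed in the same direction. The labels do not say whether the mice were shared.

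The error of the cycle genes' values differed between depots. Their standard errors in white fat were between 2.27 (Fh1) and 7.54 (Suclg1) times those in brown fat, with a median ratio of 4.93, while the median over all genes in both tables was 0.857. Among genes within 0.5 of the same mean log2 expression, the white fat errors of the 9 lay between percentiles 88.0 (Mdh2) and 99.1 (Ogdh), with a median of 95.8. In brown fat the median percentile was 23.0, and Fh1 was highest at 88.6. The cycle genes therefore had wide errors for their expression in white fat, and mostly narrow ones in brown fat. Wide white fat errors were not particular to them among the lists below. The median percentile there was 91.7 for pyruvate entry and 99.8 for thermogenic adipocyte markers, but 49.4 for anaplerosis and glutamate handling.

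**Figure D3:**
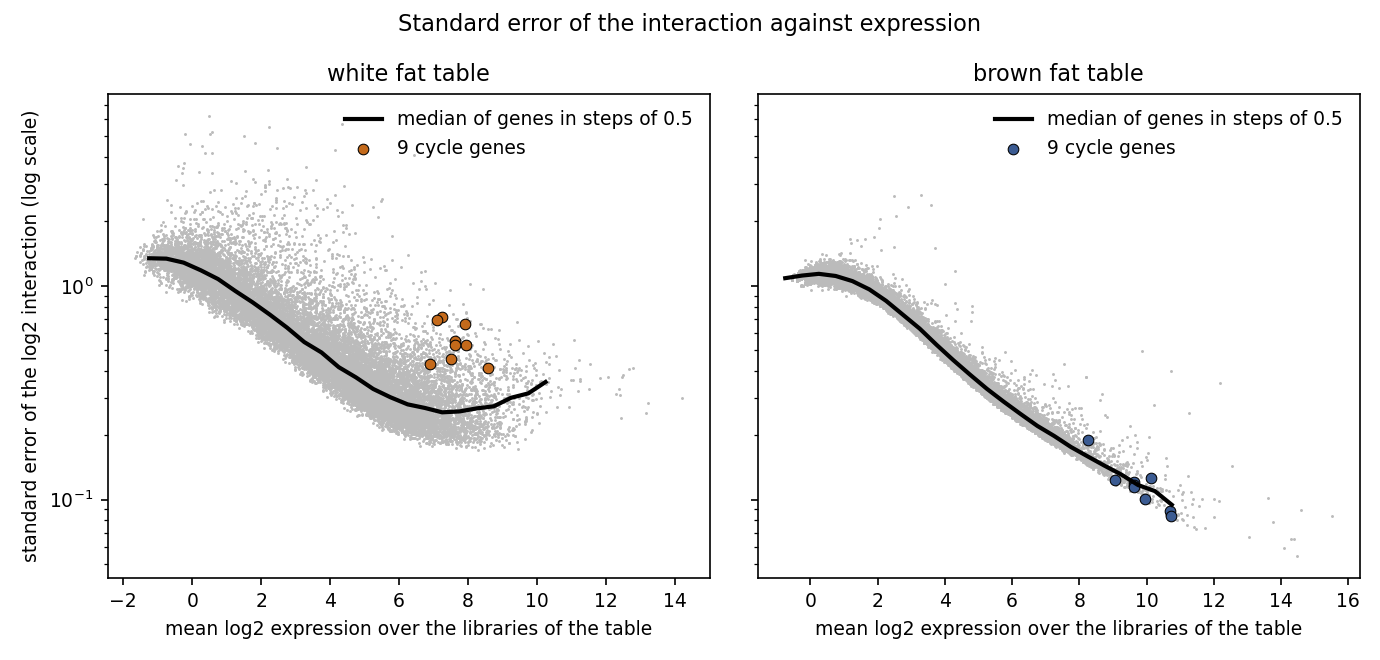
Standard error of the log2 interaction (y axis, log scale) against mean log2 expression (x axis) for all genes, in white fat (left) and brown fat (right), with the median of genes in steps of 0.5 as a line and the 9 cycle genes as large points. All 9 lie above the line in white fat, between 0.41 and 0.71, and in brown fat they lie near it, between 0.08 and 0.19.

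The remaining enzymes of the cycle were read from a list chosen with the 9 genes. In white fat 9 of 9 were above 0 (55.9% of all genes were) with a median of 1.25, and none passed the adjusted p. At an unadjusted p under 0.05 there were 6, against 11.9% of all genes above 0. Dld, the dehydrogenase that serves the 2-oxoglutarate and pyruvate complexes, was at 1.60 ± 0.49 (adjusted p = 0.0702, per the authors' deposited table), between its partners Dlst and Ogdh. Sucla2, the ATP-forming partner of Suclg1, was at 1.86 ± 0.59 (adjusted p = 0.0783, per the authors' deposited table), and the GDP-forming partner Suclg2 at 0.89 ± 0.47 (adjusted p = 0.258). The succinate dehydrogenase genes ran from 0.92 for Sdha to 2.97 for Sdhd in the authors' deposited table. In brown fat 8 of these 9 were above 0 (51% of all genes were), with a median of 0.19, and none passed. An unadjusted p under 0.05 was found for 5, against 3.33% of all genes above 0. Dld, at 0.45 ± 0.13 there (adjusted p = 0.459, per the authors' deposited table), was higher than Dlst or Ogdh in estimate. The white fat errors of this list were also wide, with a median percentile of 94.7 among genes of like expression, and 18.6 in brown fat.

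Idh2, the NADP-dependent isocitrate dehydrogenase of the matrix and a gene of the same list, was at 0.63 ± 0.34 (adjusted p = 0.274, per the authors' deposited table) in white fat. A list of 5 cytosolic enzymes was read as well. The 5 (Mdh1, Aco1, Idh1, Acly and Me1) were all above 0 in white fat, between 0.47 and 0.79, against 55.9% of all genes. None had an unadjusted p under 0.05, against 11.9% of all genes above 0. In the authors' deposited table cytosolic malate dehydrogenase, Mdh1, was at 0.55 ± 0.28, and Aco1, the cytosolic aconitase, at 0.47 ± 0.25. Mdh1 and Mdh2 had overlapping intervals, and differences between genes of 1 table were not tested. In brown fat Acly, which splits exported citrate into acetyl-CoA, was at 1.30 ± 0.43 (adjusted p = 0.622, per the authors' deposited table), above all 9 cycle genes.

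The list of genes that feed pyruvate into the cycle held 6. All 6 were above 0 in white fat (median 1.18), against 55.9% of all genes. At an unadjusted p under 0.05 there were 5, against 11.9% of all genes above 0. The adjusted p was passed by 1, while 1.06% of all genes passed above 0. This was Mpc2, which helps to carry pyruvate into mitochondria, at 1.39 ± 0.35 (adjusted p = 0.0434, per the authors' deposited table). Dlat, the core of pyruvate dehydrogenase, was at 1.16 ± 0.36 (adjusted p = 0.0714, per the authors' deposited table). All 6 were above 0 in brown fat as well (median 0.35), against 51% of all genes, with none past the adjusted p. At an unadjusted p under 0.05 there were 3 in brown fat, against 3.33% of all genes above 0. There Pdha1, the catalytic subunit of pyruvate dehydrogenase, was at 0.36 ± 0.08 (adjusted p = 0.182) and Pdhb at 0.56 ± 0.15 (adjusted p = 0.343, per the authors' deposited table). The kinases and phosphatases of that complex were mixed in white fat, 3 above and 3 below 0, and none passed. Pdk2, a kinase that shuts pyruvate dehydrogenase down, was at 2.28 ± 0.84 (adjusted p = 0.120) and the phosphatase gene Pdp2 at 1.41 ± 0.70 (adjusted p = 0.231, per the authors' deposited table). In brown fat 4 of these 6 were above 0 and none passed.

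Other lists hold genes of routes that fill or drain the cycle. Beside them, 55.9% of all genes were above 0 in white fat and 51% in brown fat. Of 9 genes for anaplerosis and glutamate handling in white fat, 5 were above and 4 below 0 (median 0.23). The one that passed did so below 0, as 3.69% of all genes did. It was Me2, the mitochondrial NAD-linked malic enzyme, at -1.96 ± 0.37 (adjusted p = 0.0355, per the authors' deposited table), against 0.20 ± 0.68 in brown fat. Pck2, the mitochondrial phosphoenolpyruvate carboxykinase, was at -0.82 ± 0.28 (adjusted p = 0.0977, per the authors' deposited table). In brown fat 6 of these 9 were above 0 and none passed. Got1, cytosolic aspartate aminotransferase, was at -0.84 ± 0.30 (adjusted p = 0.624) there, and Pcx, pyruvate carboxylase, at 0.26 ± 0.17 (adjusted p = 0.849, per the authors' deposited table). Among 5 carriers of cycle intermediates, 2 were above and 3 below 0 in white fat, with Slc25a12, an aspartate-glutamate carrier, at -1.12 ± 0.45 (adjusted p = 0.148) and Slc25a1, the citrate carrier, at 0.80 ± 0.40 (adjusted p = 0.236, per the authors' deposited table). In brown fat 4 of the 5 were above 0 and none passed.

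Among the lists wholly above 0 in white fat, assembly and accessory proteins had the smallest median. All 5 were above 0 in white fat (median 0.45), against 55.9% of all genes, and none passed. Sdhaf4, an assembly factor of succinate dehydrogenase, was at 1.01 ± 0.28 (adjusted p = 0.0559). In brown fat 4 of the 5 were above 0 (51% of all genes were) and none passed. Of the paralogs Csl, Ogdhl and Dhtkd1, the white fat table holds the last 2 and the brown fat table Dhtkd1 alone, and none passed. Ogdhl, a relative of Ogdh, was close to the floor of white fat at a mean log2 expression of -0.21, with an interaction of -1.08 ± 1.17 (adjusted p = 0.596, per the authors' deposited table). Dhtkd1, a related dehydrogenase of lysine breakdown, was at 2.26 ± 0.79 (adjusted p = 0.102) in white fat and -2.17 ± 1.08 (adjusted p = 0.767) in brown fat in the authors' deposited table, and this difference between depots had an adjusted p of 0.102.

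**Figure D4:**
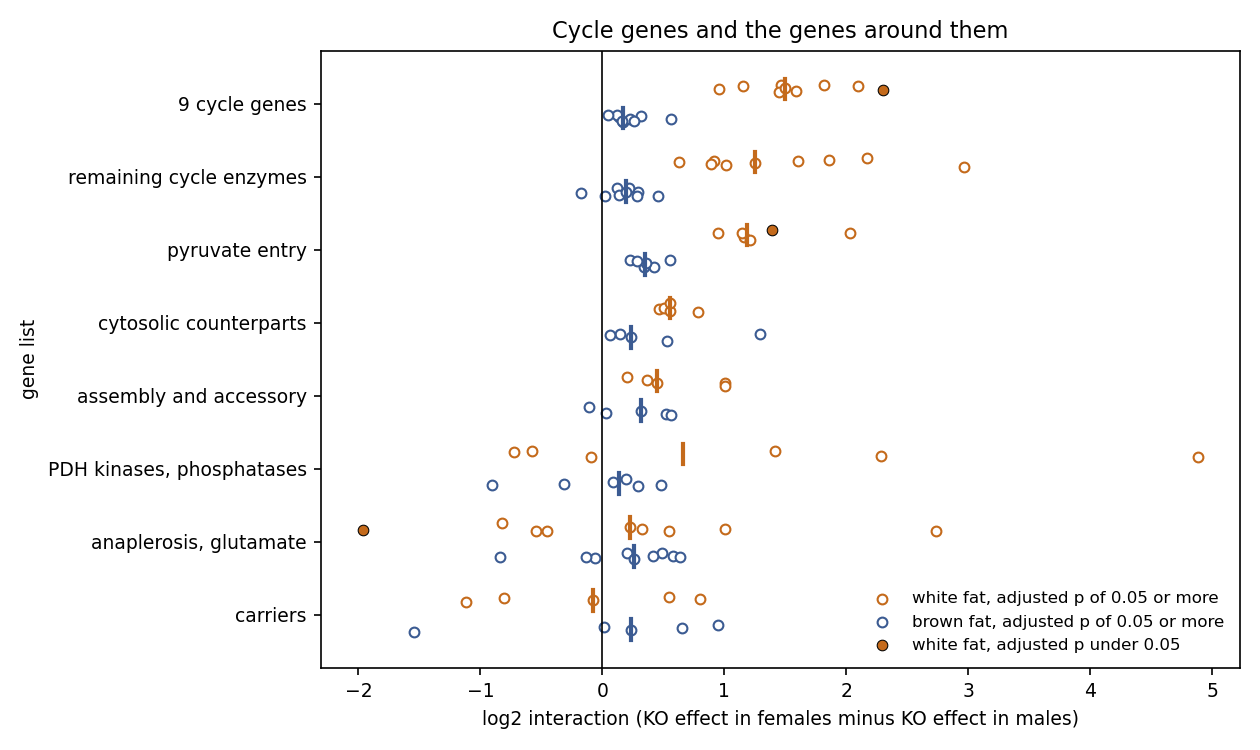
Log2 interaction (x axis) of each gene in the cycle group and in 7 lists of genes around it (y axis), with white fat in orange and brown fat in blue. Filled points pass an adjusted p of 0.05 (Idh3a, Mpc2 and Me2, all in white fat), open points do not, and short bars are medians, which run from 1.50 for the cycle genes to -0.08 for the carriers in white fat.

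Markers of other cells were read from the same table for white fat, where 55.9% of all genes lay above 0. All 8 T cell markers lay below 0 and passed (median -8.00), on the opposite side of 0 from the cycle genes. All 8 B cell markers also lay below 0 (median -8.61), and 4 of them passed. Of all genes in white fat, 3.69% passed below 0. Zap70, a kinase of T cell receptor signalling, was at -8.90 ± 1.65 (adjusted p = 0.0355), and the B cell kinase gene Blk at -8.00 ± 1.73 (adjusted p = 0.0357, per the authors' deposited table). Both had low levels, with mean log2 expressions of 0.46 for Zap70 and 0.56 for Blk. The median level was 2.20 for the T cell list and 1.59 for the B cell list. The 8 thermogenic adipocyte markers were all above 0 (median 3.25), but their errors were wide, with a median of 2.45. Only 1 had an unadjusted p under 0.05, against 11.9% of all genes above 0. It also passed the adjusted p, as 1.06% of all genes did above 0. This was Kcnk3, a potassium channel, at 3.20 ± 0.81 (adjusted p = 0.0438, per the authors' deposited table). All 10 skeletal muscle markers were above 0 (median 3.70) with a median error of 2.69, and none passed. Of these, 2 had an unadjusted p under 0.05, among them Myl1, a myosin light chain, at 1.88 ± 0.56 (adjusted p = 0.0637, per the authors' deposited table). The 5 mammary epithelial markers were above 0 (median 1.74), with a median error of 2.02, and none passed. Of the 8 adipocyte markers 7 were above 0 (median 0.32), of the 4 endothelial markers 3 (median 0.48) and of the 6 macrophage markers 2 (median -0.36), with none past the adjusted p. Brown and beige adipocytes and muscle fibres are rich in mitochondria, and the part of these cells in the cycle genes' interaction was not tested.

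In brown fat the same marker lists stood differently. The thermogenic list had 5 of 8 above 0 (median 0.10), and the adipocyte list 6 of 8 (median 0.21), against 51% of all genes. An unadjusted p under 0.05 was found above 0 for 3 adipocyte and 0 thermogenic markers, against 3.33% of all genes. Plin1 was at 0.40 ± 0.10 (adjusted p = 0.249, limma) and Lipe at 0.40 ± 0.10 (adjusted p = 0.329, limma). Of 10 skeletal muscle markers 9 were below 0 (median -3.15), so muscle markers and cycle genes lay on opposite sides there. The tables hold 3 of 8 T cell and 4 of 8 B cell markers for brown fat, at mean log2 expressions of 0.94 or less, and no mammary epithelial marker. Macrophage markers were above 0 in 2 of 6 (median -0.63), and endothelial markers in 1 of 4 (median -0.27). Below 0, an unadjusted p under 0.05 was found for 4 muscle, 2 macrophage and 1 endothelial markers. In either direction 1000 of all 15363 genes reached it. None of these markers passed the adjusted p in brown fat, and their part in the cycle genes' values was not tested.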

How the data were processed

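RNA sequencing of inguinal white fat was deposited with a matching brown fat analysis. The submitters' processing notes name featureCounts, limma and GRCm39. The sources used here do not give versions, aligner, annotation, normalisation or strand setting. Per the file headers, the authors' deposited tables hold, for each gene, the log2 interaction, the mean log2 expression, the moderated t as a score, the p-value and its Benjamini-Hochberg adjusted p-value, which was recomputed and found equal. In all, 48 library columns, 12 in each of 4 tables, match no label and were used in no step. A planned refit over libraries was therefore not made.

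The standard error was taken as the log2 interaction divided by t. Intervals of 95% use the degrees of freedom that link t and p, 13.44 in white and 33.92 in brown fat. Depots were compared over 14502 shared genes by dividing the difference by its combined error, on Welch-Satterthwaite degrees of freedom, with Benjamini-Hochberg adjustment. This step was tested on simulated data in which the errors of the depots were drawn independently, so the test does not cover shared mice. Exon lengths come from GENCODE M21 (GRCm38), matched by stable ID, and promoters from RefSeq. Depth is unknown, and no filter was added in the main comparisons. How the genes of each deposited table were selected is not given, so a gene absent from a table may have been filtered out. Work was done in Python 3.11.15, with scipy 1.17.1, pandas 2.3.3, numpy 2.4.6 and matplotlib 3.10.9.

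The 9 genes, the 8 pathway lists and the 8 marker lists were chosen with earlier results of these data known. Named genes are Ndufs4, the 9, list genes past the adjusted p, up to 2 of each pathway list and up to 3 of each marker list ranked by p in each depot, not all of which are reported here. Suclg2, Sdha, Sdhd and Idh2 in white fat, Kmo, Nop56, and the levels of Lep, Fabp4, Retn and Ucp1 were added after their values were seen. The ranges of marker levels in brown fat were also added then. Alternatives were a threshold of 0.10, centring on the median, an expression minimum of 10 on the linear scale, leaving out genes that do not code for protein, and, between depots, correlated errors and centring.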

Additional observations from a re-analysis of the deposited data

Results flagged for a closer look

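Idh3a in white fat was singled out because the KO effect differed between females and males by a test of the difference itself. Its log2 interaction was 2.30 ± 0.53 in the authors' deposited table (adjusted p = 0.0361, limma), and the adjusted p ran from 0.0329 to 0.0361 over the alternatives. In brown fat the same gene was at 0.14 ± 0.13, and the difference between depots had an adjusted p of 0.0883.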

How the results depend on the processing

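In white fat 1 cycle gene, Idh3a, passed the adjusted p, and it passed under every alternative run. A threshold of 0.10 could not have dropped it. The expression minimum and the restriction to protein-coding genes kept its p-value and changed only the adjustment. Centring alone changed its statistic, and no alternative went back to the libraries. At a threshold of 0.10 the count was 4, with Fh1, Cs and Ogdh added. Of the 16738 genes tested, those passing above 0 went from 177 to 781, and those passing in either direction from 795 to 2027. Centring on the median of all genes (0.13), the expression minimum and protein-coding genes alone each kept the count at 1. In brown fat 0 cycle genes passed under any of these settings, while 3 had an unadjusted p under 0.05. For the difference between depots 0 passed with the tables taken as independent or centred, and 2 (Idh3a and Cs) with errors correlated at 0.5. With that correlation, genes passing with the larger value in white fat went from 13 to 1171 of 14502 (10 when centred). In either direction they went from 36 to 2001 (58 when centred). No value changed direction. No paired analysis was possible because the library columns match no title and so carry no replicate number, and leaving out replicates was not run for the same reason. The contrast's sign rests on the tables' names, and depth is unknown.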
